A study of Bos taurus with 32 samples.

Results

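The subject is a set of 10 protein kinases that run meiosis and mitosis, followed in bovine embryos produced in vitro: WEE1, WEE2, PKMYT1, MOS, AURKA, AURKB, AURKC, PLK1, CDK1 and BUB1. They were chosen by name, and each was found once in each of the 4 deposited stage tables, among 14225 genes listed in all 4. WEE2, MOS and AURKC are treated as the 3 oocyte forms and the other 7 as the mitotic forms. Each library was made from the RNA of a pool of 15 Bos taurus embryos, collected at the 4-6 cell, 9-16 cell, morula or blastocyst stage. Treated embryos developed in vitro with FGF2, LIF and IGF1 added (the mix is called FLI), and control embryos developed in vitro without the 3 cytokines. Each of the 8 groups has 4 libraries. The labels give no breed, dose or time of addition, and separate cultures are not stated for the pools of a group, which means that p-values here reflect only how much these pools varied.

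CDK1 with cyclin B drives a cell into M phase. WEE1, WEE2 and PKMYT1 hold CDK1 inactive by phosphorylating it, and PLK1 and AURKA help to lift that block. WEE2 is the oocyte's own WEE kinase, known from mouse, primate and pig for keeping oocytes in prophase arrest and, in mouse, for the exit from the second meiotic arrest after fertilization. MOS switches on the MAPK cascade in oocytes and holds the egg at metaphase. AURKC is the germ cell relative of AURKB, and both can serve as the enzyme of the chromosomal passenger complex, while AURKA works at spindle poles. BUB1 acts at kinetochores in the spindle checkpoint. An embryo first lives on transcripts stored in the oocyte and replaces them when its own genome becomes active, which in cattle happens mainly at the late cleavage stages.

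Within a stage, values are the deposited signal, a normalised read count that can be compared between libraries of that stage. Between stages, values are CPM, the number of reads of a gene scaled to a common library size, after 1 joint normalisation of all libraries used, and levels of different genes are compared as CPM per kb of exon. A CPM is a share of the reads of a library, not an amount per embryo, and in pooled embryos fewer cells of a type and less RNA per cell cannot be told apart. Each stage was also its own collection, and differences between stages and between collections cannot be told apart. A gene counts as called where its limma p, adjusted by Benjamini and Hochberg's method across every gene of the fit, is below 0.05. The fit is on the log2(value + 1) scale, which understates the change of genes near or below 1.

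The 4-6 cell libraries held 12.4 to 89.2 M reads, the 9-16 cell ones 7.01 to 50.6 M, 7 of the morula ones 11.6 to 114 M and 7 of the blastocyst ones 62.6 to 169 M. The remaining 2, control replicate 4 of the morulae with 83409 reads and control replicate 6 of the blastocysts with 2995, were too shallow to read, and 30 libraries were used. Replicate 6 of FLI and of control at the 4-6 cell stage and control replicate 11 at the 9-16 cell stage stood apart. Their median rank correlations with the other libraries of their stage were 0.860, 0.836 and 0.877, against at least 0.967 for the others, and each was the deepest of its group. Summed over 17 oocyte and maternal markers, levels were 11349 to 25615 CPM at the first 2 stages and 53.4 to 145 CPM at the last 2. Trophectoderm markers, of which 7, 9, 10 and 10 of 10 were listed at the 4 stages, summed to 24301 to 47032 CPM in blastocysts and at most 2642 CPM before. The blastocyst sum was led by KRT8, at 13357 to 34161 CPM. KRT8, KRT18, KRT19, PTGS2 and GATA3 lay above every earlier library there. CDX2, GATA2, TFAP2C, TEAD4 and IFNT2 overlapped an earlier stage, with GATA2 at 67.0 to 386 CPM against 242 to 745 CPM at the 9-16 cell stage. Markers of cumulus and granulosa cells, sperm, and blood and immune cells summed to at most 249, 86.3 and 24.8 CPM in any library. The first of these lists had its highest sum in a blastocyst library, control replicate 7. In blastocysts CYP11A1 led it, at 74.8 to 238 CPM, and HAS2 was at most at 0.953 CPM. The same list was led by HAS2, at 54.6 to 106 CPM, and GREM1, at no less than 6.38 CPM, at the 4-6 cell stage. Of the 9 cumulus and granulosa markers listed there, INHA, CYP11A1, TNFAIP6 and AMH were at 0 in some libraries of that stage and the other 5 in none. ODF2 led the sperm sum at the 4-6 cell stage and in blastocysts, at 27.8 to 48.0 and 25.9 to 82.9 CPM. In morulae ODF2 (16.2 to 54.1 CPM) and TNP2 (6.27 to 59.0 CPM) led it, and the other sperm markers listed were at most at 8.83 CPM there.

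The order of the 10 kinases by level differed between the 4-6 cell stage and the blastocyst. In control 4-6 cell embryos the order of mean levels was AURKA with 2898 CPM per kb, MOS with 952, WEE2 with 349, AURKC with 270.5, PLK1 with 143, AURKB with 58.5, CDK1 with 13.7, BUB1 with 12.7, PKMYT1 with 9.94 and WEE1 with 0.401 CPM per kb. The mean of AURKA carried an SD of 2670 through replicate 6. Without it the gene was still the most abundant, at 1385, 1521 and 1791 CPM per kb (n = 3), against 838 to 1120 CPM per kb for MOS in the control libraries. Within that order WEE2 and AURKC differed by less than the sum of their SDs (49.3 and 71.8, n = 4), as did CDK1, BUB1 and PKMYT1 (3.72, 1.51 and 2.83). In control blastocysts AURKA stood at 66.8 CPM per kb, AURKB at 63.8, PLK1 at 44.4, AURKC at 31.8, CDK1 at 27.7, PKMYT1 at 26.4, BUB1 at 25.8, WEE1 at 14.1, MOS at 2.41 and WEE2 at 0.0685 CPM per kb. AURKA differed there from AURKB and from PLK1 by less than the sum of their SDs (24.9, 10.5 and 3.73, n = 3). The same held among AURKC, CDK1, PKMYT1 and BUB1 (4.08, 3.90, 6.18 and 5.23). MOS and WEE2, which stood among the 4 highest at the 4-6 cell stage, were the last 2 in blastocysts, and WEE1, the lowest at the 4-6 cell stage, was above both.

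**Figure D1:**
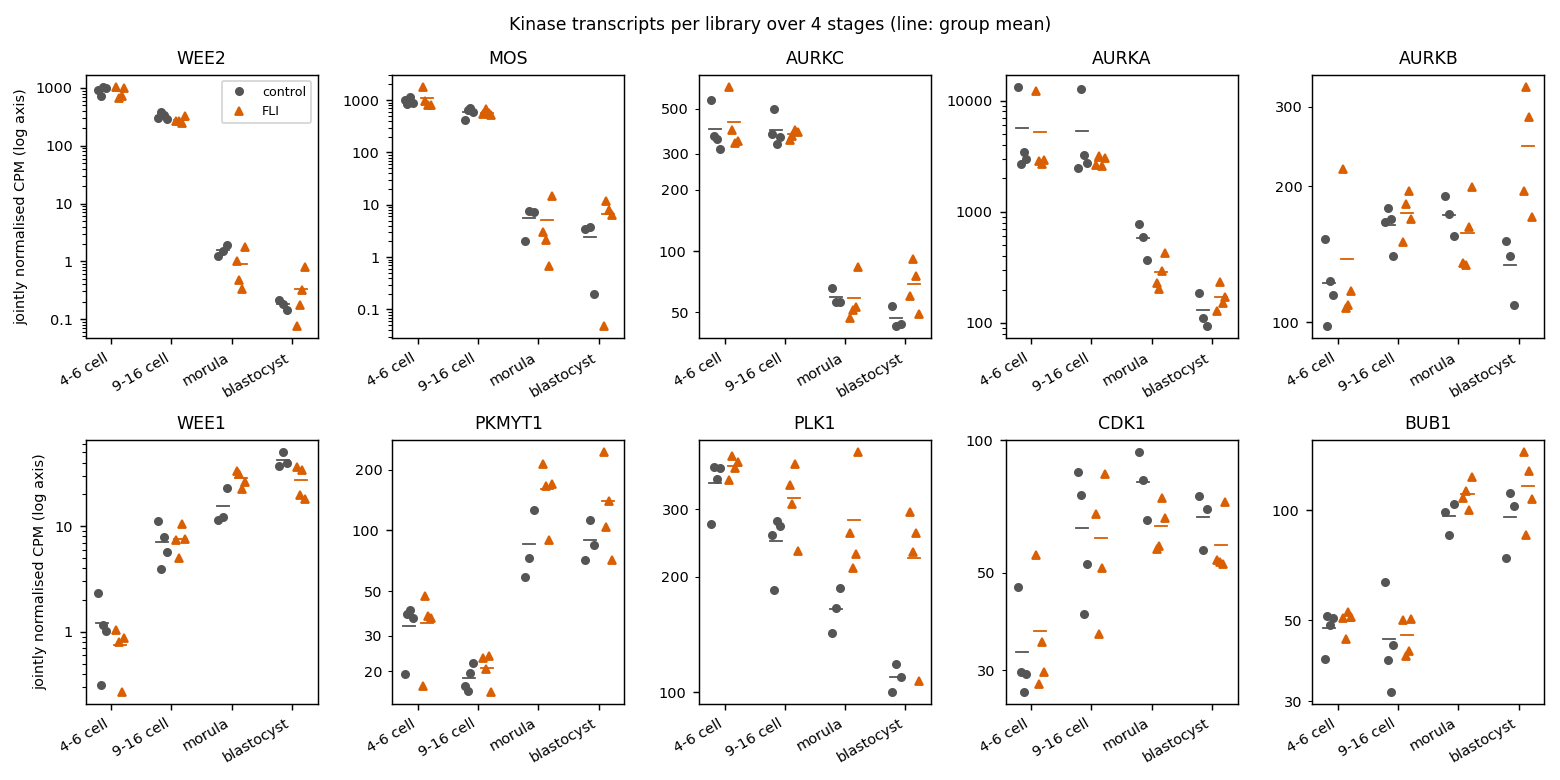
Jointly normalised CPM (log axis) of the 10 kinases in each of 30 libraries at 4 stages, with control libraries as grey circles, FLI libraries as orange triangles and a short line at each group mean. WEE2 and MOS fall from at least 251 and 425 CPM at the 9-16 cell stage to at most 1.90 and 14.5 CPM in morulae, AURKC falls to 47.0 to 83.2 CPM, and WEE1 rises from at most 2.34 CPM at the 4-6 cell stage to at least 18.1 CPM in blastocysts.

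Among the kinases that restrain CDK1, the oocyte form gave way to the somatic forms. WEE2 was read at 737, 926, 998 and 1025 CPM in the 4 control libraries of the 4-6 cell stage and at 295, 297, 340 and 379 CPM at the 9-16 cell stage. In the 3 control morulae it was at 1.23, 1.53 and 1.90 CPM, and in the 3 control blastocysts at 0.142, 0.186 and 0.215 CPM. No library of one stage overlapped the next in this series. The fall was 2.81-fold to the 9-16 cell stage and 211-fold to the morula, and the fitted log2 changes were -1.49 ± 0.22 (SE), -7.01 ± 0.23 and -1.11 ± 0.25 (limma adjusted p = 5.49e-06, 1.51e-18 and 0.00113). In FLI embryos the log2 change of WEE2 was -1.63 ± 0.22 to the 9-16 cell stage and -7.26 ± 0.22 to the morula (limma adjusted p = 1.02e-06 and 8.44e-20). FLI morulae ranged from 0.328 to 1.74 CPM and FLI blastocysts from 0.0746 to 0.783 CPM, with overlap, and that last step was not called (-0.46 ± 0.22, limma adjusted p = 0.0902).

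WEE1, the WEE kinase of dividing somatic cells, moved the other way. Control libraries held 0.312, 1.01, 1.16 and 2.34 CPM at the 4-6 cell stage and 3.95, 5.68, 7.83 and 11.1 CPM at the 9-16 cell stage. The control morulae were at 11.4, 12.3 and 22.9 CPM and the control blastocysts at 37.4, 39.3 and 50.7 CPM. Each stage lay above the one before it without overlap, and the fitted log2 rises were 1.89 ± 0.31, 1.03 ± 0.33 and 1.45 ± 0.35 (limma adjusted p = 2.46e-05, 0.00682 and 0.00219). The middle step rested on 1 library: without control morula replicate 7 it was 0.73 (limma adjusted p = 0.0705, and 0.00197 to 0.988 over all alternatives). In FLI embryos WEE1 rose by 2.29 ± 0.31 to the 9-16 cell stage and by 1.79 ± 0.31 to the morula (limma adjusted p = 1.08e-06 and 8.48e-06). FLI blastocysts, at 18.1, 19.8, 34.5 and 36.2 CPM, overlapped FLI morulae, at 22.7 to 33.6 CPM, and the change was -0.11 ± 0.31.

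PKMYT1, the membrane-bound relative of the WEE kinases, rose at a single step. It was at 16.0 to 21.9 CPM in control 9-16 cell libraries and at 58.7, 72.6 and 126 CPM in control morulae, and at 15.8 to 23.7 CPM and 89.3, 167, 169 and 214 CPM in the FLI libraries. The groups did not overlap, and the log2 rises were 2.08 ± 0.37 in control and 2.83 ± 0.35 in FLI embryos (limma adjusted p = 1.86e-05 and 4.22e-08). Between the 4-6 cell and 9-16 cell stages its fitted changes of -0.78 ± 0.35 and -0.63 ± 0.35 were not called. In both treatments replicate 6 was the lowest 4-6 cell library (19.4 and 16.9 CPM, against 36.6 to 47.0 CPM in the others). Without the 3 libraries that stood apart the changes were -0.95 and -0.93, and both were called (limma adjusted p = 0.0399 and 0.0260, and up to 0.958 and 0.901 over the alternatives).

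The balance of these 3 kinases turned over between the 9-16 cell stage and the morula. Per kb of exon, WEE2 was 97.1% ± 0.867 (SD, n = 4) of the sum of WEE1, WEE2 and PKMYT1 in control 4-6 cell embryos, 93.9% ± 1.43 (n = 4) in 9-16 cell embryos, 1.99% ± 0.356 (n = 3) in morulae and 0.175% ± 0.0588 (n = 3) in blastocysts. With FLI the shares were 96.7% ± 1.64, 92.3% ± 1.90, 0.569% ± 0.369 and 0.380% ± 0.478 (n = 4 each). The last mean rested on FLI blastocyst replicate 8, at 1.09%, and was 0.145% ± 0.0998 (n = 3) without it. The ratio of WEE2 to WEE1 ran from 1319 ± 962 through 62.0 ± 33.6 and 0.120 ± 0.0240 to 0.00494 ± 0.00138 in control embryos. The first of these means rested on replicate 7, at 2693 with 5 WEE1 reads, and was 861 ± 360 (n = 3) without it. These shares and ratios restate the levels above and were not tested.

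**Figure D2:**
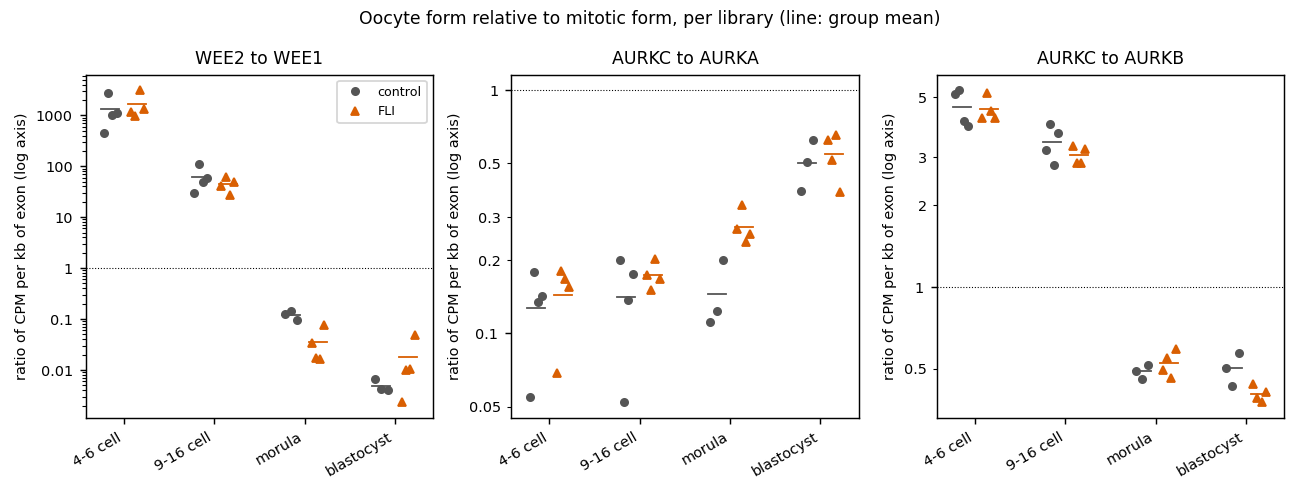
Ratio of an oocyte form to a mitotic form, in CPM per kb of exon (log axes), in each of 30 libraries at 4 stages, with group means as short lines and a dotted line at equal levels. WEE2 to WEE1 falls through 1 between the 9-16 cell stage and the morula, AURKC to AURKB does so too and then stays between 0.377 and 0.594, and AURKC to AURKA rises to 0.382 to 0.655 in blastocysts without reaching 1.

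MOS, which maintains MAPK activity in the oocyte, fell with WEE2 but left a higher and more uneven remainder. Control libraries were at 858, 900.0, 993 and 1146 CPM at the 4-6 cell stage, at 425, 595, 649 and 724 CPM at the 9-16 cell stage, and at 2.01, 7.21 and 7.71 CPM in morulae. FLI libraries were at 800, 816, 973 and 1822 CPM, then at 521, 534, 558 and 678 CPM, and in morulae at 0.676, 2.17, 3.07 and 14.5 CPM. No stage overlapped the next up to the morula in either treatment. The first step was not called (-0.72 ± 0.61 in control and -0.86 ± 0.61 in FLI embryos), and the step to the morula was -6.62 ± 0.66 and -7.06 ± 0.61 (limma adjusted p = 1.23e-09 and 6.69e-11). In blastocysts MOS ranged from 0.195 to 3.70 CPM in control and from 0.0475 to 12.1 CPM in FLI libraries. FLI blastocyst replicate 5 held almost none while the other 3 held at least 6.32 CPM, and neither step from the morula was called (-1.03 ± 0.70 and 0.35 ± 0.61).

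The Aurora kinases did not follow one course. AURKC was level over the first 2 stages, at 318, 355, 366 and 554 CPM and then 337, 365, 377 and 500.5 CPM in control libraries. It fell to 56.1, 56.2 and 66.0 CPM in control morulae, and in FLI embryos from 351 to 393 CPM to 47.0, 51.7, 53.0 and 83.2 CPM. The groups did not overlap, the falls were 6.64-fold and 6.36-fold, and the fitted log2 changes were -2.70 ± 0.25 and -2.68 ± 0.23 (limma adjusted p = 3.61e-10 and 7.25e-11). AURKC was then still read at 42.7, 44.0 and 53.7 CPM in control and at 49.2, 60.3, 75.6 and 91.6 CPM in FLI blastocysts, and the step from the morula was not called (-0.34 ± 0.27 and 0.23 ± 0.23). Of the 3 oocyte forms it was thus the one that remained in the range of the mitotic kinases, at 31.8 ± 4.08 CPM per kb in control blastocysts against 2.41 ± 1.93 for MOS and 0.0685 ± 0.0138 for WEE2.

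AURKA, the spindle pole kinase, is grouped with the mitotic forms but was the most abundant of the 10 in cleavage embryos and fell with the oocyte forms. Setting aside the 3 libraries that stood apart, it was at 2690 to 3478 CPM in the other 6 libraries of the 4-6 cell stage and at 2482 to 3224 CPM in the other 7 of the 9-16 cell stage. The 3 libraries that stood apart (control, then FLI, at the 4-6 cell stage, and control at the 9-16 cell stage) were at 13390.1, 12307 and 12659 CPM, more than 4 times the mean of the others in their groups (4.40, 4.34 and 4.49 times). In the same 3 libraries WEE2 was 1.01, 1.30 and 1.22 times, MOS 1.03, 2.11 and 1.12 times, AURKC 1.60, 1.78 and 1.39 times and PLK1 0.730, 0.898 and 0.686 times the mean of the others. Depth and mitochondrial share moved with the AURKA level: the 3 libraries had 1.27%, 1.22% and 2.80% of reads from mitochondrially encoded genes, the highest of their groups. Their part in the AURKA level was not tested.

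AURKA fell to 371, 598 and 779 CPM in control morulae and to 203, 231, 295 and 430 CPM in FLI morulae, below every 9-16 cell library. The log2 changes were -2.87 ± 0.55 and -3.36 ± 0.51 (limma adjusted p = 4.32e-05 and 1.52e-06). It fell again to 93.1, 111 and 185 CPM in control blastocysts (-2.16 ± 0.59, limma adjusted p = 0.00575). FLI blastocysts, at 127, 152, 170 and 235 CPM, overlapped FLI morulae, and that step was -0.73 ± 0.51 (limma adjusted p = 0.265). Without the 3 libraries that stood apart its estimate was the same and it was called (limma adjusted p = 0.0159, and up to 0.800 over all alternatives).

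AURKB, the passenger complex kinase of mitosis, changed little. Control means were 122 ± 22.9, 164 ± 16.5, 173 ± 17.8 and 134 ± 21.9 CPM over the 4 stages, and neither of the first 2 steps was called in either treatment. In FLI embryos it rose from 134 to 199 CPM in morulae to 171 to 332 CPM in blastocysts (0.60 ± 0.23, limma adjusted p = 0.0399). The groups overlapped, and the call was lost without FLI morula replicate 2, 4 or 6 or FLI blastocyst replicate 6 or 7 (limma adjusted p = 0.108, 0.111, 0.0592, 0.166 and 0.119, and 0.00603 to 0.827 over all alternatives). Because AURKA fell and AURKB did not, the make-up of the family changed. Per kb of exon AURKA held 86.7% ± 4.98 of the 3 Aurora kinases in control 4-6 cell embryos and 40.3% ± 5.47 in blastocysts, AURKB 2.42% ± 0.958 and 39.8% ± 4.10, and AURKC 10.9% ± 4.09 and 19.9% ± 2.70.

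CDK1, which all 3 WEE family kinases act on, rose at the first step in control embryos. It was at 26.8, 29.4, 29.7 and 46.4 CPM in control 4-6 cell libraries and at 40.2, 52.3, 75.1 and 84.4 CPM at the 9-16 cell stage (0.88 ± 0.26, limma adjusted p = 0.0136). The groups overlapped, since control replicate 6 of the first stage lay above replicate 12 of the second, and the call was lost without control replicate 10 of the 9-16 cell stage (limma adjusted p = 0.0667, and 0.00409 to 0.497 over all alternatives). In FLI embryos the same step was 0.67 ± 0.26 (limma adjusted p = 0.0544). Later steps of CDK1 were not called, with control means of 80.4 ± 14.1 CPM in morulae and 66.9 ± 9.43 CPM in blastocysts.

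BUB1 rose at a single step. It was at 31.9 to 63.6 CPM in control 9-16 cell libraries and at 85.8, 99.0 and 104 CPM in control morulae, and at 40.0 to 50.5 CPM and 100.2 to 123 CPM with FLI. The log2 rises were 1.14 ± 0.22 and 1.27 ± 0.20 (limma adjusted p = 4.22e-05 and 3.02e-06), the groups did not overlap, and blastocysts stayed at 74.1 to 144 CPM. PLK1, which promotes mitotic entry and spindle assembly, went from 352 ± 52.3 CPM at the 4-6 cell stage through 248 ± 43.3 and 165 ± 22.5 to 109 ± 9.19 CPM in control embryos. None of its steps was called. That to the morula was -0.57 ± 0.28 in control embryos (limma adjusted p = 0.0665) and was called without the 3 libraries that stood apart (-0.71, limma adjusted p = 0.0247) and without FLI blastocyst replicate 8 (-0.57, limma adjusted p = 0.0259). Its call also turned on which library served as the reference of the joint normalisation. With FLI morula replicate 4 in place of replicate 7 the step was -0.68 in control and -0.56 in FLI embryos, where it had been -0.22 ± 0.26, and both were called (limma adjusted p = 0.0229 and 0.0408, and 0.0147 to 0.467 and 0.00675 to 0.858 over all alternatives). That change of reference moved the median of all genes at the step from 0.13 to 0.04 in control and from 0.23 to -0.06 in FLI embryos. PLK1 shares 213 exon bases with ERN2 on the other strand, per the tables of the first 2 stages. ERN2 was at most 3.52 in signal in any library there, against at least 228.5 for PLK1.

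Counted over the set, few kinases moved at the first step and most at the second. From the 4-6 cell to the 9-16 cell stage 3 of 10 were called in control embryos (WEE1 and CDK1 up, WEE2 down), where 26% of all genes were called, and 2 of 10 in FLI embryos (WEE1 up, WEE2 down), where 31.2% were. Without the 3 libraries that stood apart the counts were 4 and 5, where 28% and 33.5% of genes were called, with PKMYT1 lower in both and AURKB and CDK1 higher with FLI. From the 9-16 cell stage to the morula 7 of 10 were called in each treatment, the same 7 genes in the same direction, with WEE1, PKMYT1 and BUB1 up and WEE2, MOS, AURKA and AURKC down. The background was 73.6% in control and 73.3% in FLI embryos, so the count itself was close to that of all genes. By direction, 39% of genes rose and 34.6% fell in control embryos, and 40.6% and 32.6% with FLI. Without the 3 libraries that stood apart 8 and 7 were called, where 77.9% and 79.1% of genes were, with PLK1 added in control embryos.

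At that step WEE2 and MOS had the largest changes of the 10 kinases in both treatments, while the estimates of AURKC, -2.70 and -2.68, were no larger in size than those of AURKA. The oocyte forms' median log2 change was -6.62 in control and -7.06 in FLI embryos, against 0.39 and 0.15 for the 7 mitotic forms, which moved both ways, and 0.13 and 0.23 for all genes tested. From the morula to the blastocyst 3 of 10 were called in control embryos (WEE1 up, WEE2 and AURKA down), where 32.8% of genes were, and 1 of 10 with FLI (AURKB up), where 40.7% were, 18.8% up and 22% down. With FLI 2 were called without the 3 libraries that stood apart, where 51.5% of genes were. Medians at this step were -0.36 and -0.13 over the 10 kinases and -0.02 and -0.08 over all genes.

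The question of the series is how the cytokine mix alters the embryo, and none of the 10 kinases was called between FLI and control embryos of the same stage. Of the 10 tested at the first 3 stages and 9 in blastocysts, where WEE2 was below the filter of a mean signal of 1, 0 were called at each stage, as were 0% of all genes. At an unadjusted limma p under 0.05 the members counted 0, 0, 3 and 2 at the 4 stages, against 0.0897%, 2.07%, 31.7% and 15.7% of all genes. Of the other tools, edgeR and limma-voom called 0 members at every stage, and DESeq2 called 0 except for AURKA in morulae. Of all genes, edgeR called 3.82% and DESeq2 16.2% in morulae, DESeq2 called 2.86% in blastocysts, and the 3 tools called 0% in the remaining cases. Fitted differences ran from -0.31 ± 0.31 for WEE1 to 0.13 ± 0.22 for PLK1 at the 4-6 cell stage, and from -0.55 ± 0.45 for AURKA to 0.33 ± 0.24 for PLK1 at the 9-16 cell stage. The fit did not pair libraries. Replicate 6 stood apart in both groups of the 4-6 cell stage, and the errors there include that spread. No kinase had groups without overlap at these 2 stages, as 0.344% and 1.8% of all genes had (0.0747% and 0.615% lower, 0.269% and 1.19% higher with FLI). The difference of AURKA rested on control replicate 11: without it the control libraries averaged 2817 ± 376 CPM (n = 3), against 2866 ± 299 CPM with FLI (n = 4).

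**Figure D3:**
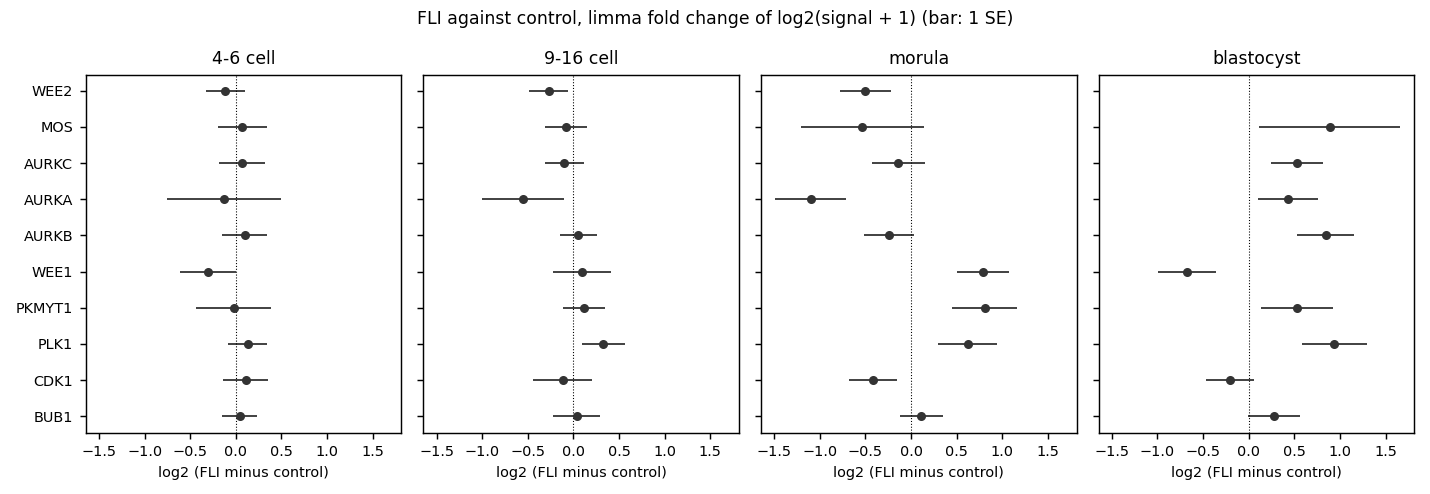
Log2 difference FLI minus control of the deposited signal plus 1 for each kinase at 4 stages, with points for the limma estimate and bars for 1 SE. At the first 2 stages the estimates lie between -0.55 and 0.33, and in morulae and blastocysts they run from -1.10 for AURKA to 0.94 for PLK1, with WEE2 not tested in blastocysts.

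In morulae the largest differences were in AURKA, PKMYT1 and WEE1. The deposited signal of WEE1 was 10.3, 11.2 and 20.7 in control and 20.3, 23.9, 25.3 and 26.4 in FLI morulae (0.79 ± 0.29, limma adjusted p = 0.109). PKMYT1 was at 53.0, 66.3 and 114 in control and at 79.7, 134, 156 and 168 in FLI morulae (0.80 ± 0.35, limma adjusted p = 0.153). AURKA was at 335, 547 and 704 in control and at 163, 181, 263 and 395 in FLI morulae (-1.10 ± 0.39, limma adjusted p = 0.101). In each of the 3 genes the overlap came from control replicate 7, which lay nearer to the FLI libraries than to the other 2 controls for WEE1 and PKMYT1 and below FLI replicate 7 for AURKA.

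Without control morula replicate 7, limma called all 3, where 34.8% of all genes were called, with differences of 1.08, 1.11 and -1.39 (adjusted p = 0.0116, 0.0325 and 0.0224). Over all alternatives the adjusted p ran from 0.0116 to 0.973 for WEE1, from 0.0325 to 0.973 for PKMYT1 and from 0.0224 to 0.766 for AURKA. DESeq2 on the recovered reads called AURKA (-1.13, adjusted p = 0.0446), with 16.2% of genes called. In the authors' deposited table, which subtracts FLI from control, AURKA had a log2 fold change of 1.44 with a false discovery rate of 0.0590, and no member was under 0.05 in morulae, where 10.6% of listed genes were.

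PLK1 was the one kinase whose morula groups did not overlap, where 21.3% of all genes had such groups. Its signal was 129, 152 and 169 in control and 169.6, 204.8, 205.0 and 390 in FLI morulae (0.62 ± 0.32, limma adjusted p = 0.210), and 8.73% of all genes were separated with FLI higher. The highest control and the lowest FLI library differed by less than 1 unit. Other measures moved with treatment at this stage. The mitochondrial share was 1.39 to 3.95% in FLI and 4.30 to 6.11% in control libraries. The summed level of 4 hypoblast markers, none of them at 0 and led by GATA6 and PDGFRA, was 449 to 808 CPM in FLI and 91.6 to 437 CPM in control libraries. FLI replicate 7, the deepest library with 114 M reads and the lowest mitochondrial share, held the highest FLI values of PLK1, AURKA, AURKB, AURKC, MOS, WEE2 and BUB1. The part of these measures in the differences was not tested.

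In blastocysts AURKB, PLK1 and WEE1 had the smallest p of the 9 kinases tested, and none was called. AURKB and PLK1 were at an unadjusted limma p under 0.05, where 15.7% of all genes were. The signal of AURKB was 105, 138 and 150 in control and 171, 194, 270 and 327 in FLI blastocysts, with no overlap (0.84 ± 0.31, limma adjusted p = 0.260). WEE1 was at 37.1, 37.7 and 49.9 in control and at 18.1, 19.5, 32.6 and 36.0 with FLI, again with no overlap (-0.67 ± 0.32, limma adjusted p = 0.330). Such separation was seen in 12.8% of all genes, in 6.93% with FLI higher and in 5.86% with FLI lower. WEE1 thus lay lower with FLI in blastocysts and higher in morulae, and the test of a difference between stages gave an unadjusted p of 0.0155 and a limma adjusted p of 0.561.

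PLK1 was at 99.2, 105 and 117 in control blastocysts and at 107, 229, 246 and 293 with FLI (0.94 ± 0.35, limma adjusted p = 0.263). FLI replicate 8 lay among the controls and the other 3 FLI libraries above all of them. That library had 5.58% mitochondrial reads, against 0.646 to 1.15% in the other FLI blastocysts and 1.33 to 7.65% in the controls. Without it the difference was 1.25 (limma adjusted p = 0.0421, and up to 0.911 over all alternatives), where 2.97% of genes were called. In the authors' deposited table PLK1 was the one member under a false discovery rate of 0.05, with a log2 fold change of control minus FLI of -1.13 and a rate of 0.0438, where 4.55% of listed genes were under it. All FLI blastocysts were sequenced more deeply (111 to 169 M reads) than the controls (62.6 to 107 M). Whether depth or mitochondrial share had a part was not tested.

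**Figure D4:**
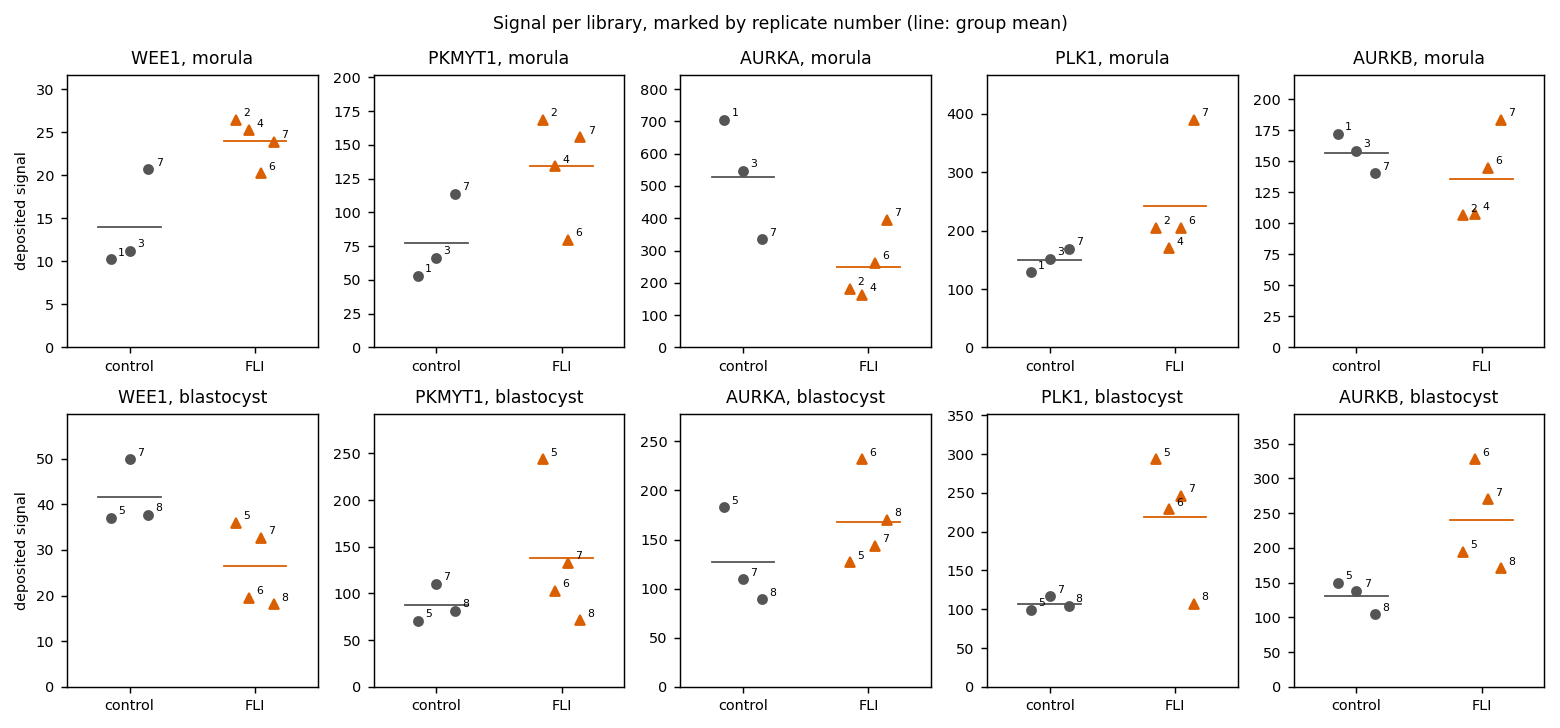
Deposited signal of 5 kinases in each library of morulae (top) and blastocysts (bottom), with axes from 0, replicate numbers beside the points and a line at each group mean. In morulae control replicate 7 lies apart from the other controls in WEE1, PKMYT1 and AURKA, and in blastocysts FLI replicate 8, at 107, lies among the controls in PLK1.

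The oocyte forms showed no called difference with FLI at any stage. MOS differed by 0.07 ± 0.27, -0.08 ± 0.23, -0.53 ± 0.67 and 0.89 ± 0.77 over the 4 stages, and its errors were larger at the last 2 stages than at the first 2. AURKC differed by 0.07 ± 0.25, -0.10 ± 0.22, -0.14 ± 0.29 and 0.53 ± 0.28. WEE2 differed by -0.12 ± 0.21, -0.27 ± 0.21 and -0.50 ± 0.28 at the first 3 stages. The ratio of AURKC to AURKA per kb was 0.112 to 0.200 in control and 0.238 to 0.337 in FLI morulae. These groups did not overlap, and neither did those of 21.3% of single genes at this stage. In blastocysts the ratio was 0.383 to 0.623 and 0.382 to 0.655. It restates the levels of AURKC and AURKA and was not tested. No member was called for a change of the FLI difference between stages, nor was any gene, and 1 member (WEE1) and 8.57% of genes were at an unadjusted limma p under 0.05. There edgeR called 0 members and had 0 at an unadjusted p under 0.05, and limma-voom called 0 and had 1.

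The kinases' partners, 88 genes in 7 lists, moved in both directions at the step where the oocyte kinases fell. From the 9-16 cell stage to the morula in control embryos 25 of 88 rose and 27 fell, where 39% and 34.6% of all genes did. Among 10 genes of the MOS to MAPK branch 2 rose and 5 fell, with a median of -1.03. CPEB1, which controls the translation of stored transcripts such as MOS in frog and mouse oocytes, fell with MOS from 1363 ± 317 to 10.4 ± 8.45 CPM, or 5.67 ± 3.21 without control morula replicate 7 (-7.16 ± 0.63, limma adjusted p = 1.12e-10). FBXO43, the meiotic inhibitor of the anaphase-promoting complex that acts beside MOS in the egg, fell from 43.0 ± 6.79 to 0.368 ± 0.167 CPM (-5.00 ± 0.23, limma adjusted p = 3.60e-16). RPS6KA1, a kinase downstream of MAPK, rose from 7.99 ± 2.66 to 70.9 ± 29.2 CPM (2.98 ± 0.44, limma adjusted p = 1.22e-06), and MAP2K2 rose by 1.05 ± 0.26.

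Partners of the Aurora kinases moved in both directions. CDCA8, the passenger complex subunit borealin, fell from 1207 ± 125 to 113 ± 16.7 CPM (-3.41 ± 0.26, limma adjusted p = 6.96e-12), while BIRC5, its subunit survivin, rose from 173 ± 77.4 to 350.2 ± 116 CPM (1.04 ± 0.30, limma adjusted p = 0.00327). Of the 9 genes of that list 1 rose and 4 fell, with a median of 0.16. In the spindle checkpoint list, which holds BUB1's partners, 5 of 12 rose and 1 fell, where 39% of all genes rose and 34.6% fell. SPC24, a subunit of the NDC80 kinetochore complex, rose from 7.84 ± 8.45 CPM, or 3.66 ± 1.59 without control replicate 11 of the 9-16 cell stage, to 633 ± 362 CPM (6.39 ± 0.64, limma adjusted p = 1.57e-09) and NUF2 of the same complex by 2.28 ± 0.51, and MAD1L1 fell by 0.63 ± 0.27.

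Of the 11 cyclins and CDK partners 2 rose and 5 fell. For this and the following lists, 39% of all genes rose and 34.6% fell at the step to the morula. CCNA1, known in mouse as the cyclin A of the male germ line, rose from 11.7 ± 2.62 to 63.0 ± 7.33 CPM and then fell to 4.90 ± 1.56 CPM in blastocysts (2.35 ± 0.23 and -3.47 ± 0.24, limma adjusted p = 6.89e-10 and 2.49e-11). CCNH rose by 1.35 ± 0.37, CCNB3 fell by 3.38 ± 0.30 and CKS1B fell by 1.48 ± 0.61. The control 9-16 cell mean of CKS1B was 1154 CPM, or 741 ± 83.8 CPM without control replicate 11. In the list of the CDC25 and Greatwall arm 3 of 11 rose and 4 fell. That list also holds PP2A and PP1 subunits, and its members do not all oppose the WEE kinases. CDC25B, the phosphatase that resumes meiosis in mouse oocytes, fell from 171 ± 89.7 to 16.6 ± 5.36 CPM (-3.15 ± 0.50, limma adjusted p = 2.91e-06). ENSA fell by 2.34 ± 0.28, and PPP1CA and ARPP19 rose by 2.41 ± 0.24 and 1.72 ± 0.51. The control 9-16 cell mean of ARPP19 was 105 CPM, or 61.5 ± 22.7 CPM without control replicate 11. Of 16 genes of the anaphase-promoting complex and its targets 7 rose, led by CDC16 (2.77 ± 0.21) and ANAPC10 (2.61 ± 0.67), and 1, CDC27, fell by 1.11 ± 0.25. The control 9-16 cell mean of ANAPC10 was 17.2 CPM, or 9.55 ± 0.927 CPM without control replicate 11. Of 19 other cell cycle kinases 5 rose, led by the checkpoint kinases CHEK1 (2.15 ± 0.31) and CHEK2 (1.98 ± 0.20), and 7 fell, led by STK10 (-5.30 ± 0.49) and MELK (-1.97 ± 0.20).

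At the other steps in control embryos 4 of the 88 rose and 14 fell to the 9-16 cell stage, where 13.7% and 12.3% of all genes did, and 7 rose and 18 fell to the blastocyst, where 17.6% and 15.2% did. At the first step MAD2L1 of the spindle checkpoint rose by 1.66 ± 0.31, and BUB1B, the relative of BUB1, fell by 1.57 ± 0.22, while BORA, which activates AURKA and PLK1, fell by 1.63 ± 0.22. In FLI embryos 5, 29 and 6 rose and 21, 23 and 23 fell over the 3 steps, where 15.2%, 40.6% and 18.8% of all genes rose and 16%, 32.6% and 22% fell. Between FLI and control 0 of the 88 were called at any stage. In morulae the gene of each list with the smallest p was MNAT1 (-1.79 ± 0.42), ARPP19 (-1.39 ± 0.37), RPS6KA1 (1.28 ± 0.31), TPX2 (-0.93 ± 0.29), SPC24 (-1.77 ± 0.44), ANAPC10 (-2.07 ± 0.48) and NEK7 (signal of 35.5 ± 18.6 in control and 75.9 ± 8.61 in FLI morulae), with limma adjusted p from 0.0630 to 0.0825.

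Across the 30 libraries the 3 oocyte forms and AURKA had the closest companions, and CDK1 and AURKB the loosest. By Pearson correlation of log2(CPM + 1), given as a description of libraries that share stages and depth, WEE2 was most like GDF9 (r = 0.997), an oocyte growth factor, PEX5L and CCNI2 (r = 0.996 each). MOS was most like ID3 (r = 0.993), EIF4E1B and ZAR1L, and AURKC like THAP9 (r = 0.992), ZAR1L and WDR20. WEE2, MOS and AURKC correlated with each other at 0.971 to 0.980, and AURKA with the 3 at 0.930 to 0.952. WEE1 was most like HSF2 (r = 0.973), SLC29A3 and GLA, PKMYT1 like TRMT2A (r = 0.976), AARS2 and RPS6KA1, and BUB1 like HSPA9 (r = 0.953), HSPA4 and IBA57. The nearest to AURKA were POLD3 (r = 0.989), TFAP2D and ISL1, to PLK1 ABCF2 (r = 0.951), THOP1 and PDXP, to CDK1 SAP18 (r = 0.901), LCORL and TFAM, and to AURKB BUB3 (r = 0.828), TBCC and EMC3.

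Per the deposited tables, in the build ARS-UCD1.2, the genes were placed as follows. WEE2 (ENSBTAG00000004658) is on chromosome 4 (104972275 to 104999289, plus strand), MOS (ENSBTAG00000019145) on chromosome 14 (23299177 to 23300199, minus) and AURKC (ENSBTAG00000003261) on chromosome 18 (64453980 to 64458059, plus). WEE1 (ENSBTAG00000005278) is on chromosome 15 (43077354 to 43091213, minus), and PKMYT1 (ENSBTAG00000004729) and PLK1 (ENSBTAG00000014453) are on chromosome 25 (2380374 to 2391571, minus, and 21334598 to 21345432, plus). AURKA (ENSBTAG00000013009) is on chromosome 13 (59555286 to 59570430, plus) and AURKB (ENSBTAG00000001717) on chromosome 19 (27835752 to 27840596, minus). CDK1 (ENSBTAG00000010109) is on chromosome 28 (16488142 to 16582565, plus) and BUB1 (ENSBTAG00000021181) on chromosome 11 (1585412 to 1618575, plus). Exon lengths run from 1023 bases for MOS to 3731 bases for BUB1.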

How the data were processed

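Embryo RNA came from a PicoPure kit and its cDNA from SMART-Seq v4, per the labels' protocols. The submitters' processing notes name FastQC, HISAT2, featureCounts, edgeR and the build ARS-UCD1.2. Their versions, the strand setting and any filter on genes were not given in the sources used here. The authors deposited 1 table per stage with a normalised signal per gene and library. Per the file headers, each table adds a log2 fold change, a log2 mean level, a likelihood ratio score, a p-value and its false discovery rate from the authors' own test. Where the authors' genes were under a rate of 0.05, the sign of their fold change was opposite to FLI minus control in 100%, 98.4% and 100% of them at the last 3 stages, so it is read as control minus FLI.

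Dividing each library's signals by its smallest positive value gave whole numbers for 100% of them (tolerance 0.001), so reads were recovered, and depths are their sums. Within a stage limma 3.58.1 (trend and robust) was run on log2(signal + 1) for genes with a mean of at least 1. Across stages it was run on log2(CPM + 1) after TMM normalisation (edgeR 4.0.16) of the recovered reads of 14225 genes, 13388 of them with a mean CPM of at least 1, in 1 fit of 30 libraries and 8 group means. The interaction was an F test. The scripts were tested on simulated data. P-values were adjusted over all genes tested.

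Alternatives were edgeR, limma-voom and DESeq2 1.42.0 on recovered reads, other pseudocounts, filters and size factors, all 32 libraries, each library left out, a replicate block, and, chosen after seeing the data, the 3 libraries that stood apart left out and other TMM reference libraries. The reference edgeR picked was FLI morula replicate 7. In 9 of 30 fits that leave out a library edgeR would pick another, so those fits kept it wherever it was present. Same-numbered FLI and control libraries deviated together at the 4-6 cell stage (correlations of 0.473 to 0.924 over 4 pairs), so these numbers were taken as pairs there in the replicate block. The same number was the best match for replicates 6, 7 and 9 but not for replicate 8 (0.473). Since replicate 6 stood apart in both groups, the correlations cannot show that the other numbers are pairs. The 10 members, their 2 classes and the lists were chosen with earlier results of these data known, and so was the naming rule: all members, then per list and comparison up to 2 called genes in each direction with the largest change, or 1 with the smallest p, and 3 genes most correlated with each member. Named at the other steps are a few of these. Sequences were not used here.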

Additional observations from a re-analysis of the deposited data

Results flagged for a closer look

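In 60 sets of 4 libraries (a kinase in a group), 11 had a library set off from the other 3 by more than Dixon's 95% critical value, where chance sets off about 5%. The share over all genes was not counted, and the kinases of a group share its libraries. The count is therefore not read as a trait of the kinases. All are deposited signals. AURKA was highest in replicate 6 of FLI (13161) and of control (14936) at the 4-6 cell stage and in control replicate 11 at the 9-16 cell stage (15648), which are the 3 libraries that stood apart. In 2 of them AURKB (FLI replicate 6, 233) was also set off upwards and PKMYT1 (control replicate 6, 21.7) downwards. MOS was highest in control replicate 8 of the 4-6 cell stage (1391), FLI replicate 11 of the 9-16 cell stage (812) and FLI replicate 7 of the morulae (13.3). In that morula library PLK1 (390) was set off too. CDK1 was highest in FLI blastocyst replicate 8 (72.4), the library whose PLK1 lay among the controls. WEE1 was lowest in FLI replicate 8 of the 4-6 cell stage (0.333), where the others held 0.984 to 1.12.

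The shallow morula control replicate 4, used in no comparison, held larger shares of WEE2, MOS, AURKA and BUB1 reads than the deep control morulae. Of its 83409 reads 14 were WEE2, or 168 per M reads (exact 95% binomial interval 91.8 to 282), against 0.690 to 1.72 per M in the 3 deep control morulae. MOS had 12 reads, or 144 per M (74.3 to 251, against 1.13 to 6.54), AURKA 234 reads, or 2805 per M (2458 to 3188, against 336 to 436), and BUB1 21 reads, or 252 per M (156 to 385, against 55.3 to 94.3). AURKC had 6 reads, or 71.9 per M (26.4 to 157, against 36.8 to 51.0), and for AURKC, PKMYT1, AURKB, PLK1 and CDK1 the interval overlapped the deep controls. WEE1 had 0 reads, which allows up to 44.2 per M by the same interval, and the deep controls held 6.35 to 20.8. The intervals cover counting error only, the library had 12.4% mitochondrial reads, and the source of these reads was not tested. The other shallow library, with 2995 reads, held 2 of CDK1 and 0 of the other 9 kinases, which allows up to 1231 per M each by that interval and so shows nothing of their level.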

How the results depend on the processing

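From the 9-16 cell stage to the morula the falls of WEE2, MOS and AURKC and the rise of PKMYT1 kept their calls under every alternative run, and the fall of AURKA and the rise of BUB1 under every one but all 32 libraries. Between FLI and control morulae DESeq2 called 1 member, and leaving out single libraries gave 0 to 3 in morulae and 0 to 1 in blastocysts, with 0 to 0 at the first 2 stages and in the interaction. From the morula to the blastocyst with FLI, 2 were called with a pseudocount of 0.1, edgeR, limma-voom and DESeq2 (WEE2 added) and without the 3 libraries that stood apart (AURKA added), 0 with only the groups of the contrast and 0 with all 32 libraries. With all 32 libraries 0 were called at the first step in either treatment and 4 at the second in control embryos, where WEE1 stood at 0.02 (limma adjusted p = 0.988). The cause was not tested, except that 2 of these libraries hold few reads. Leaving out single libraries gave 2 to 4 calls at the first step in control and 2 to 5 in FLI embryos (5 without FLI 4-6 cell replicate 6), 6 to 8 and 7 to 9 at the second (9 without FLI morula replicate 7, where the reference changed too), and 3 to 3 and 0 to 2 at the last (2 without FLI blastocyst replicate 8, with WEE2 added).

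The choice of the TMM reference moved the median of all genes with FLI by up to -0.30 at the second step and 0.12 at the last, and it changed the call of PLK1 at the second step and of no other member. Relative log expression factors moved these medians from 0.23 to 0.05 and from -0.08 to 0.05 and changed no call. With the replicate block 0 members were called between FLI and control at the first 2 stages (correlations of same-numbered libraries of 0.0628 to 0.285 at the 9-16 cell stage), so the pairing changed no call there. Of the libraries used, FLI and control shared 1 replicate number in morulae and 3 in blastocysts. A block leaves no spread to test against in morulae and little in blastocysts, so it cannot show an effect of pairing at these stages. Of 3482 member values under alternatives 97 changed sign while uncalled in both fits. Few reads limit WEE2 in morulae and blastocysts (as few as 5 and 8), WEE1 at the 4-6 cell stage (as few as 5) and all values of the 2 shallow libraries. MOS had only 7 reads in FLI blastocyst replicate 5, although that library held 169 M reads.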
